A study of Mus musculus with 10 samples.

Results

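The Slc25 family of mitochondrial carriers was examined in mouse livers that had lost Fbp1. The genes were chosen by name alone, as the protein-coding genes whose symbol begins with Slc25a, and Slc25a1, Slc25a13, Slc25a15 and Slc25a20 were set aside by the rule. This gave 43 genes of the 53392 in the deposited table. The livers came from C57BL/6 mice aged 24 weeks, 5 wild type (WT, replicates 1 to 5) and 5 labelled Fbp1-deleted (replicates 6 to 10), and the treatment protocol in the labels describes the deficiency as hepatic. RNA of whole liver was sequenced without keeping the strand. The sources used here do not give how the deletion was made, the sex of the mice or their feeding state.

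Slc25 proteins form the main set of gates through the inner mitochondrial membrane. Each is built of repeated pairs of membrane-spanning helices, and most exchange a solute of the cytosol for another of the matrix. Their cargo includes adenine nucleotides and phosphate for ATP synthesis, dicarboxylates and amino acids for gluconeogenesis, urea synthesis and the malate-aspartate shuttle, and cofactors such as NAD and coenzyme A that matrix enzymes need. Fbp1 encodes the liver enzyme that removes a phosphate from fructose bisphosphate, a cytosolic step of gluconeogenesis that lies downstream of this mitochondrial export. The series asks how its loss changes the liver transcriptome.

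The 10 libraries held between 17778395 and 23894812 estimated counts, and mitochondrially encoded transcripts took between 4.24% and 6.47% of them. Fbp1 itself lay between 778 and 1050.3 CPM (counts in every 1000000 of the TMM-scaled library) in WT and between 7.38 and 13.4 CPM in Fbp1-deleted liver, with no overlap between the groups. Hepatocyte markers (6 genes such as Alb and Ttr) summed to between 46592 and 87241 CPM in WT and between 73882 and 85412 CPM in Fbp1-deleted liver, and 1 of them, Cps1, passed as higher. Summed markers of leukocytes other than Kupffer cells (5 genes) lay between 12.5 and 16.4 CPM in WT. In Fbp1-deleted liver they lay between 6.58 and 10.4 CPM, with no overlap. Of these genes 1 passed as lower, 4 were lower at an unadjusted p under 0.05 (edgeR) and 3 with DESeq2. Kupffer cell markers (6 genes) lay between 182 and 258 CPM in WT and between 141 and 207 CPM in Fbp1-deleted liver, and 3 of them passed the test as lower. Of the markers of stellate cells and fibroblasts (6 genes), which summed to between 136 and 199.6 CPM in WT and between 181 and 244 CPM in Fbp1-deleted liver, Dcn passed as higher. Of those of sinusoidal endothelium (5 genes), between 169 and 198 CPM in WT and between 120.5 and 196 CPM in Fbp1-deleted liver, Lyve1 passed as higher. None passed as lower, but 2 of the 5 were lower at an unadjusted p under 0.05 (edgeR). Their sum lay below every WT library in Fbp1-deleted replicates 6 to 9 (152, 152, 161 and 120.5 CPM) and within the WT range in replicate 10. Skeletal muscle markers (4 genes, Myh4 at 0 in all libraries) summed to at most 1.95 CPM. On the first principal component of all genes tested Fbp1-deleted replicate 8 lay at 6.39, between the WT libraries (at most -18.2) and the other Fbp1-deleted libraries (at least 35.3). In whole liver, fewer cells of a type and less RNA per cell cannot be told apart.

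Of the 43 carrier genes, 38 had enough counts to be tested, and 12 rose and 2 fell in Fbp1-deleted liver. A gene passed where the edgeR quasi-likelihood test gave a Benjamini-Hochberg adjusted p under 0.05 over all 15392 genes tested, of which 20.6% passed, 10.6% as higher and 10% as lower. Each change below is a log2 ratio of Fbp1-deleted over WT, followed by its standard error (SE). Among the carriers tested, 36.8% passed, 31.6% as higher and 5.26% as lower, and their median change was 0.16 against 0.0093 over all genes tested. WT and Fbp1-deleted values did not overlap for 11 carriers, 28.9% of those tested, against 13.5% of all genes tested. The rises reached 3.73-fold for Slc25a22, 3.18-fold for Slc25a47, 2.83-fold for Slc25a32 and 2.27-fold for Slc25a25, and the remaining 8 were 1.99-fold or less. The falls were those of Slc25a35 and Slc25a37. With library totals alone or with upper quartile factors 9 carriers rose and 4 fell. The median change of all genes tested was then -0.078 and -0.063, and their share that passed was not counted.

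**Figure D1:**
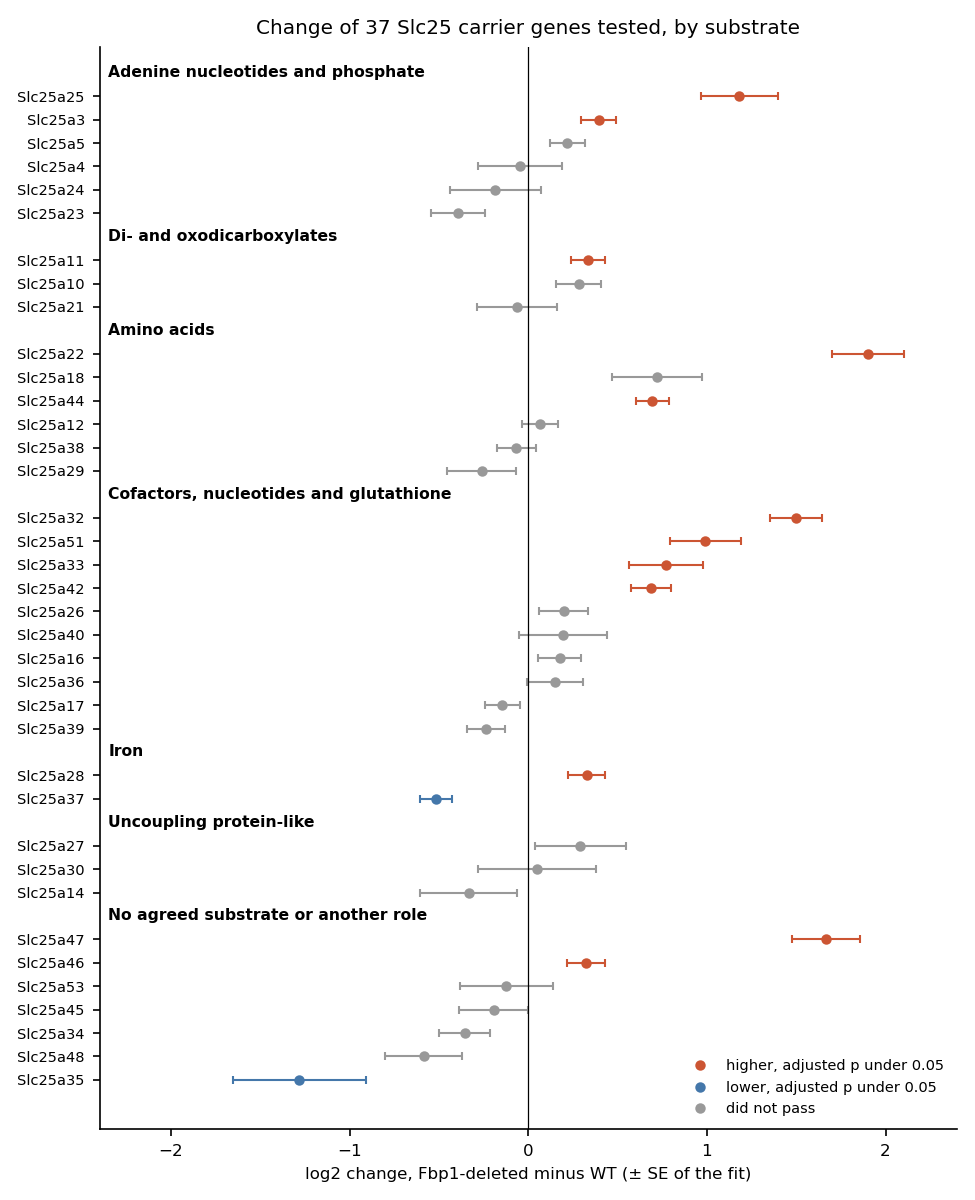
Change of 37 of the 38 carrier genes tested (x axis, log2 of Fbp1-deleted over WT; bars are the SE of the fit), grouped by substrate. Rises stand in every group except the uncoupling protein-like carriers, and the largest, of Slc25a22, is 1.90.

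Among the 7 carriers of amino acids 6 were tested, and Slc25a22 and Slc25a44 rose while none fell (edgeR; 0 as lower at an unadjusted p under 0.05 and 0 with DESeq2). Slc25a22 (chromosome 7, 141429744 to 141437892, minus strand, GRCm38) encodes a carrier that moves glutamate with a proton into the matrix. It stood at 295, 300.0, 186, 211 and 226 CPM in WT and at 898, 869, 546, 1089 and 1147 CPM in Fbp1-deleted liver, each list in the order of the replicates. Each Fbp1-deleted library lay above each WT library, with replicate 8 the lowest of its group and replicates 9 and 10 the highest. The means were 244 ± 51.4 CPM in WT (SD, n = 5) and 909.9 ± 236 CPM in Fbp1-deleted liver (SD, n = 5), a change of 1.90 (SE 0.20, adjusted p = 7.01e-05, edgeR). In the fits that left out each library in turn the change lay between 1.80 and 2.04. The other glutamate carrier gene, Slc25a18, was scarce, at 1.48, 1.23, 0.975, 0.983 and 1.08 CPM in WT and at 2.203, 1.67, 2.23, 2.003 and 1.38 CPM in Fbp1-deleted liver. Fbp1-deleted replicate 10 lay within the WT range and the other 4 above it. Its change of 0.72 (SE 0.25, adjusted p = 0.0562) did not pass. It passed once WT 1 or Fbp1-deleted 10 was left out (adjusted p between 0.0451 and 0.0486) and with DESeq2 (adjusted p = 0.0432). The annotated spans of Slc25a18 and Atp6v1e1, on opposite strands, overlap, and whether their exons share sequence was not tested.

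Slc25a44 (chromosome 3, 88410498 to 88425139, minus strand) encodes a carrier of branched-chain amino acids. It stood at 67.4, 86.4, 84.9, 74.2 and 81.1 CPM in WT and at 127, 125, 133, 126 and 127 CPM in Fbp1-deleted liver. The Fbp1-deleted libraries lay close together, all above the highest WT library, and replicate 8 was here the highest. The coefficient of variation was 10.1% in WT and 2.37% in Fbp1-deleted liver. Its change reached 0.70 (SE 0.091, adjusted p = 2.54e-04, edgeR). Slc25a12, which encodes the aspartate-glutamate exchanger best known from muscle and brain, was at 17.2 ± 0.741 CPM in WT (SD, n = 5) and 17.9 ± 2.03 CPM in Fbp1-deleted liver (SD, n = 5), with a change of 0.064 (SE 0.10, adjusted p = 0.691). Slc25a38, the carrier that brings glycine to haem synthesis, had a change of -0.066 (SE 0.11, adjusted p = 0.701). Slc25a29, a carrier of basic amino acids, had a change of -0.26 (SE 0.19, adjusted p = 0.371). Slc25a2, an ornithine carrier, held 61 counts over all 10 libraries and was not tested.

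In the group for adenine nucleotides and phosphate (8 members, 6 tested) Slc25a25 and Slc25a3 rose and none fell (edgeR; 1 lower at an unadjusted p under 0.05, 0 with DESeq2). Slc25a25 (chromosome 2, 32414487 to 32451445, minus strand) encodes a calcium-regulated carrier that exchanges ATP-magnesium for phosphate and so sets the adenine nucleotide content of the matrix. It stood at 242, 299.7, 225, 342 and 286 CPM in WT and at 465, 518, 433, 890.3 and 857 CPM in Fbp1-deleted liver. All Fbp1-deleted libraries lay above all WT libraries, with replicates 9 and 10 far above the other 3 of their group. The change was 1.18 (SE 0.22, adjusted p = 0.00306, edgeR). Its span overlaps that of Naif1 on the other strand. Its relatives with the same cargo did not pass. Slc25a23 lay at 141, 188, 194, 198 and 249 CPM in WT and at 140.1, 138, 195, 124 and 142 CPM in Fbp1-deleted liver. Fbp1-deleted replicate 8 stood among the WT libraries, replicate 10 just above the lowest of them, WT replicate 1, and replicates 6, 7 and 9 below it. The change of -0.39 (SE 0.15, adjusted p = 0.0799) did not pass. It passed as lower once WT 1 or Fbp1-deleted 8 was left out (adjusted p between 0.0162 and 0.0308), with library totals alone, with upper quartile factors and with 1 surrogate variable. Slc25a24 was scarce, at 1.77, 1.31, 1.08, 1.48 and 1.95 CPM in WT and at 1.39, 1.17, 1.12, 1.58 and 1.43 CPM in Fbp1-deleted liver. The groups overlapped, and its change was -0.18 (SE 0.26, adjusted p = 0.649). Slc25a41 held 3 counts in all and was not tested.

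Slc25a3 (chromosome 10, 91116574 to 91124059, minus strand) encodes the phosphate carrier that supplies ATP synthase. It lay at 263, 260.0, 255, 276 and 260.3 CPM in WT and at 359, 339, 283, 381 and 363 CPM in Fbp1-deleted liver. WT libraries were tightly grouped and all Fbp1-deleted libraries lay above them, replicate 8 least. The change was 0.39 (SE 0.10, adjusted p = 0.0125, edgeR). Slc25a5 (chromosome X, 36795651 to 36798807, plus strand), the ADP/ATP translocase of dividing and epithelial cells, lay at 308, 303, 288, 294 and 314 CPM in WT and at 376, 368, 305, 392 and 312 CPM in Fbp1-deleted liver. Fbp1-deleted replicates 6, 7 and 9 exceeded each WT library while replicates 8 and 10 did not, and the change of 0.22 (SE 0.10, adjusted p = 0.129) did not pass. Slc25a4, the translocase of heart and muscle, stood at 6.94, 7.85, 8.34, 9.12 and 7.303 CPM in WT and at 6.71, 7.41, 13.6, 4.85 and 5.68 CPM in Fbp1-deleted liver. Fbp1-deleted replicate 8 was the highest library of all, and replicates 6, 9 and 10 lay below the WT range. Skeletal muscle markers summed to 1.36 CPM in that library. The change of Slc25a4 was -0.045 (SE 0.24, adjusted p = 0.915), and its sign depended on which library was left out. Slc25a31, the translocase of the testis, held 11 counts in all and was not tested.

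**Figure D2:**
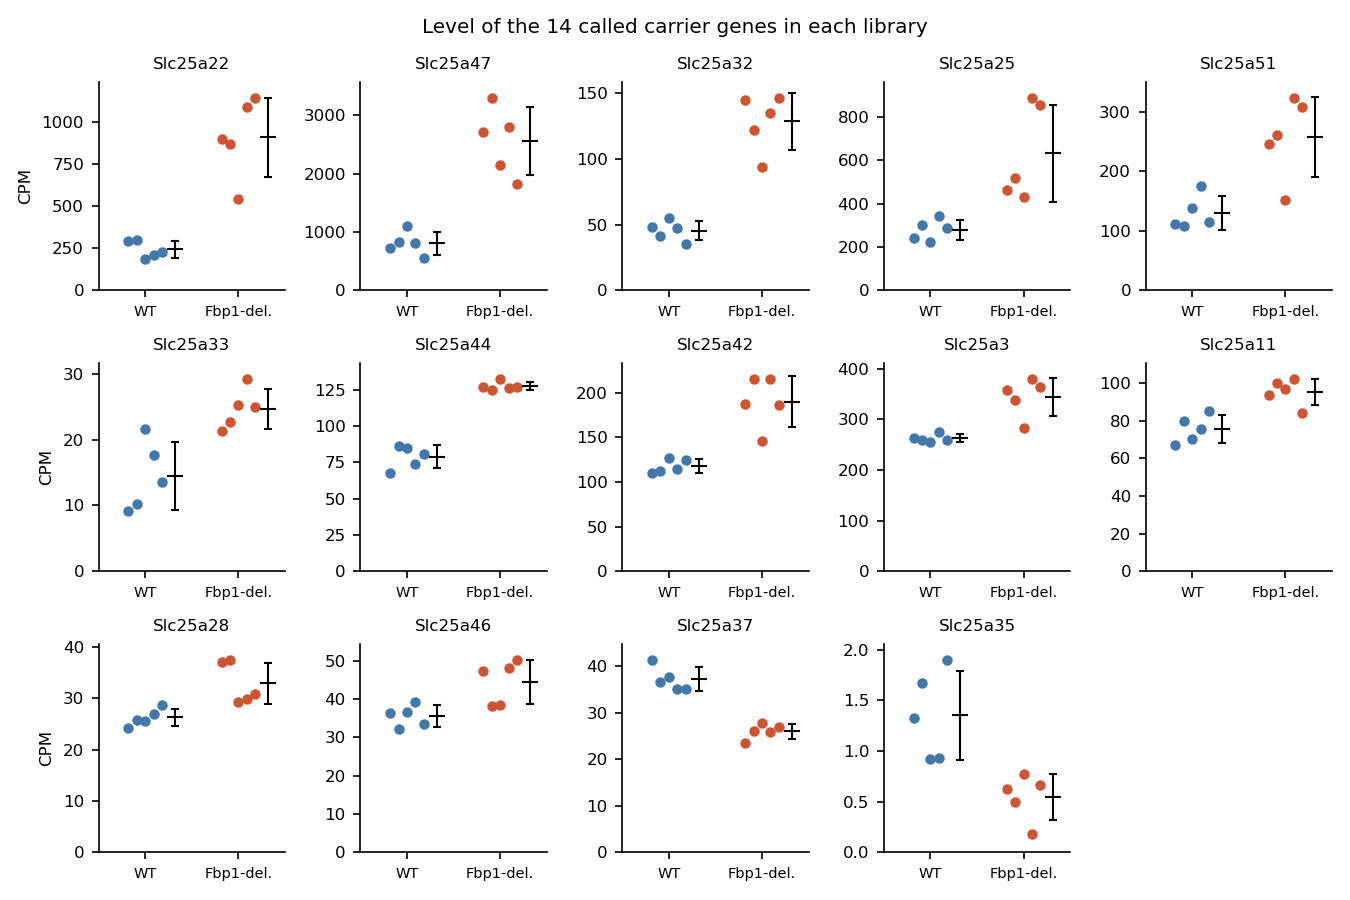
Level in each library (y axis, CPM from 0) of the 14 carrier genes that passed, ordered by change, with the mean and SD of each group as black marks (n = 5). The groups lie wholly apart for 10 of the 14, and overlap for Slc25a51, Slc25a33, Slc25a11 and Slc25a46.

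Cofactor, nucleotide and glutathione carriers (11 members, all tested) held 4 rises and no fall (edgeR; 1 lower at an unadjusted p under 0.05, 0 with DESeq2). Slc25a32 (chromosome 15, 39091231 to 39112716, minus strand) encodes the carrier of folate, which also serves mitochondrial FAD. It stood at 48.2, 41.5, 55.1, 47.2 and 35.3 CPM in WT and at 145, 122, 93.6, 135 and 147 CPM in Fbp1-deleted liver. The lowest Fbp1-deleted library, replicate 8, lay well above the highest WT library. The change was 1.50 (SE 0.14, adjusted p = 2.42e-05, edgeR), the smallest adjusted p among the carriers. Slc25a51 (chromosome 4, 45395923 to 45408766, minus strand) encodes the carrier that brings NAD into mitochondria. It lay at 111, 108, 138, 175 and 116 CPM in WT and at 246, 261, 152, 324 and 308 CPM in Fbp1-deleted liver. Fbp1-deleted replicate 8 lay below WT replicate 4, and the other 4 Fbp1-deleted libraries lay above all WT libraries. The change was 0.99 (SE 0.20, adjusted p = 0.00455, edgeR). Slc25a42 (chromosome 8, 70184340 to 70212305, minus strand) encodes a carrier of coenzyme A. It lay at 109.8, 112, 127, 115 and 125 CPM in WT and at 187, 216, 146, 215 and 186 CPM in Fbp1-deleted liver. The groups lay apart, with replicate 8 again the lowest Fbp1-deleted library. The change was 0.69 (SE 0.11, adjusted p = 0.00121, edgeR).

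Slc25a33 (chromosome 4, 149744036 to 149774277, minus strand) encodes a pyrimidine nucleotide carrier of the inner membrane and was described as responsive to insulin and growth factors. It stood at 9.15, 10.3, 21.7, 17.7 and 13.6 CPM in WT and at 21.3, 22.7, 25.3, 29.3 and 24.9 CPM in Fbp1-deleted liver. WT libraries spread over more than 2-fold, and Fbp1-deleted replicate 6 lay just below the highest of them. The change of 0.77 (SE 0.21, adjusted p = 0.0217, edgeR) no longer passed once WT 2, WT 5 or Fbp1-deleted 9 was left out (adjusted p between 0.0519 and 0.0569), and the gene overlaps an annotated antisense transcript. The other pyrimidine nucleotide carrier, Slc25a36, lay at 3.74, 3.68, 3.79, 3.82 and 3.19 CPM in WT and at 3.98, 3.57, 3.88, 3.88 and 4.905 CPM in Fbp1-deleted liver. Its change of 0.15 (SE 0.16, adjusted p = 0.543) did not pass.

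Other cofactor and glutathione carriers did not pass. Slc25a39, which brings glutathione into mitochondria, lay at 438, 482, 459.7, 459 and 480.4 CPM in WT and at 368, 474, 418, 383 and 329 CPM in Fbp1-deleted liver. Of the Fbp1-deleted libraries replicate 7 lay within the WT range and the other 4 below it, for a change of -0.23 (SE 0.11, adjusted p = 0.134). Its relative Slc25a40 was at 2.695 ± 0.913 CPM in WT (SD, n = 5) and 3.096 ± 0.593 CPM in Fbp1-deleted liver (SD, n = 5), with a change of 0.20 (SE 0.25, adjusted p = 0.611). Slc25a16, a relative of the coenzyme A carrier, stood at 39.7, 48.6, 50.9, 46.1 and 48.3 CPM in WT and at 59.2, 42.2, 47.5, 50.3 and 64.4 CPM in Fbp1-deleted liver. The groups overlapped, with a change of 0.18 (SE 0.12, adjusted p = 0.335). Slc25a17, a carrier of the peroxisomal membrane, and Slc25a26, the carrier of S-adenosylmethionine, had changes of -0.14 (SE 0.10, adjusted p = 0.311) and 0.20 (SE 0.14, adjusted p = 0.333).

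Of the 3 carriers of dicarboxylates and oxodicarboxylates Slc25a11 rose and none fell (edgeR; 0 lower at an unadjusted p under 0.05, 0 with DESeq2). Slc25a11 (chromosome 11, 70644196 to 70647479, minus strand) encodes the oxoglutarate carrier, which exports oxoglutarate for malate in the malate-aspartate shuttle. It lay at 66.9, 80.1, 70.3, 75.3 and 85.0 CPM in WT and at 93.4, 99.9, 96.7, 102 and 84.1 CPM in Fbp1-deleted liver. Fbp1-deleted replicate 10 lay just below WT replicate 5 and the other 4 lay above all WT libraries. The change was 0.34 (SE 0.10, adjusted p = 0.0248, edgeR). It did not pass with any of WT 1, WT 3 and Fbp1-deleted 6, 7 and 9 left out (adjusted p between 0.0501 and 0.0657), with library totals alone, with upper quartile factors and without a filter on low counts. The gene overlaps Rnf167 on the other strand. Slc25a10, the dicarboxylate carrier that exchanges malate or succinate for phosphate, stood at 254, 294, 257, 215 and 304 CPM in WT and at 332, 386, 343, 280.1 and 268 CPM in Fbp1-deleted liver. Replicates 6, 7 and 8 exceeded each WT library and replicates 9 and 10 did not. Its change of 0.28 (SE 0.13, adjusted p = 0.131) did not pass. Slc25a21, the oxodicarboxylate carrier of lysine and tryptophan breakdown, had a change of -0.061 (SE 0.22, adjusted p = 0.874).

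The mitoferrins, which bring iron to haem and iron-sulfur cluster synthesis, moved in opposite directions. Slc25a37 (chromosome 14, 69241848 to 69285112, minus strand), the mitoferrin of red cell precursors, stood at 41.5, 36.7, 37.6, 35.1 and 35.2 CPM in WT and at 23.5, 26.0, 27.8, 26.0 and 27.0 CPM in Fbp1-deleted liver. Each Fbp1-deleted library lay below each WT library, with little spread in either group. The change was -0.51 (SE 0.089, adjusted p = 0.0017, edgeR), and the alternatives gave between -0.60 and -0.47. Slc25a28 (chromosome 19, 43663801 to 43674881, minus strand), the mitoferrin found in most tissues, lay at 24.2, 25.7, 25.6, 26.9 and 28.7 CPM in WT and at 37.0, 37.5, 29.3, 29.9 and 30.8 CPM in Fbp1-deleted liver. The Fbp1-deleted libraries lay above the WT libraries, although replicates 8, 9 and 10 did so by little. The change was 0.33 (SE 0.10, adjusted p = 0.0365, edgeR). It did not pass with any of WT 1, 2, 3 and Fbp1-deleted 6 and 7 left out (adjusted p between 0.0727 and 0.101), with library totals alone, with upper quartile factors and without a filter on low counts. Erythroid markers (6 genes, 5 tested) summed to between 192 and 347 CPM in WT and between 130.1 and 352 CPM in Fbp1-deleted liver, and none passed (edgeR; 0 at an unadjusted p under 0.05, 0 with DESeq2). In the same livers 3 of 6 Kupffer cell markers and 1 of 5 other leukocyte markers passed as lower. At an unadjusted p under 0.05 (edgeR) 4 and 4 were lower, and with DESeq2 3 and 3. The part of these cells in the change of Slc25a37 was not tested. Other transcripts are annotated within the span of Slc25a37 on either strand.

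The carriers without an agreed substrate or with another role (9 members, 7 tested) held the most abundant transcript of the family. Slc25a47 (chromosome 12, 108836046 to 108856815, plus strand) encodes a carrier made almost only in the liver. It stood at 728, 823, 1096, 815 and 563 CPM in WT and at 2718, 3301, 2141, 2799 and 1823 CPM in Fbp1-deleted liver. The lowest Fbp1-deleted library, replicate 10, lay well above the highest WT library, replicate 3. The change was 1.67 (SE 0.19, adjusted p = 9.07e-05, edgeR), and the fits without 1 library gave between 1.55 and 1.80. Slc25a29 is its neighbour, on the opposite strand and with 162 bases between the annotated spans. Slc25a29 lay at 5.904, 8.25, 7.42, 5.19 and 4.99 CPM in WT and at 5.46, 7.19, 5.33, 4.19 and 4.35 CPM in Fbp1-deleted liver. Its groups overlapped, with a change of -0.26. In the other neighbouring pairs, Slc25a41 with Slc25a23, Slc25a54 with Slc25a24 and Slc25a43 with Slc25a5, the first gene had too few counts to be tested.

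Slc25a46, a protein of the outer membrane that takes part in mitochondrial fission and fusion, lay at 36.4, 32.1, 36.6, 39.2 and 33.4 CPM in WT and at 47.3, 38.2, 38.4, 48.2 and 50.3 CPM in Fbp1-deleted liver. Fbp1-deleted replicates 7 and 8 lay within the WT range and the other 3 above it. The change of 0.32 (SE 0.11, adjusted p = 0.0465, edgeR) was close to the threshold. It did not pass with any of WT 1, 2, 3, 5 and Fbp1-deleted 6, 9 and 10 left out (adjusted p between 0.0674 and 0.118), with library totals alone, upper quartile factors, no filter or a stricter filter, and with limma-voom. The span of Slc25a46 overlaps that of B930094E09Rik on the other strand. Slc25a35 (chromosome 11, 68968131 to 68974365, plus strand), whose cargo is not settled, stood at 1.33, 1.68, 0.921, 0.929 and 1.903 CPM in WT and at 0.623, 0.501, 0.776, 0.182 and 0.661 CPM in Fbp1-deleted liver. All Fbp1-deleted libraries lay below all WT libraries. The change was -1.28 (SE 0.37, adjusted p = 0.0271, edgeR), from 192 counts over all 10 libraries. These were 27, 41, 17, 17 and 37 in WT and 13, 9, 16, 3 and 12 in Fbp1-deleted liver. Slc25a35 thus met the filter on low counts through its WT libraries, and with at least 1 CPM required in at least 5 libraries it was not tested. It did not pass with any of WT 2, WT 5 and Fbp1-deleted 6, 7 and 9 left out (adjusted p between 0.0552 and 0.0731), and the gene overlaps Rangrf on the other strand. Slc25a34 lay at 14.7, 14.4, 15.4, 15.6 and 16.1 CPM in WT and at 10.4, 14.3, 8.48, 14.3 and 12.2 CPM in Fbp1-deleted liver. The Fbp1-deleted libraries lay below all WT libraries here too, but the change of -0.36 (SE 0.14, adjusted p = 0.09) did not pass, and it passed as lower with library totals alone and with upper quartile factors. Slc25a48 had means of 12.3 ± 3.73 CPM in WT (SD, n = 5) and 8.198 ± 2.26 CPM in Fbp1-deleted liver (SD, n = 5), with a change of -0.59 (SE 0.22, adjusted p = 0.071). It passed as lower without Fbp1-deleted replicate 8 (adjusted p = 0.0162) and with DESeq2 (adjusted p = 0.0494). Without that library 4 carriers passed as lower, and only Slc25a37 did with any of WT 2, WT 5 and Fbp1-deleted 6, 7 and 9 left out.

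Slc25a45 and Slc25a53 had changes of -0.19 and -0.12 and did not pass. Slc25a43 held 109 counts over all libraries and was not tested. Slc25a54 had a count of 0 in every library, which at 3 counts allows up to between 0.126 and 0.169 CPM per library, for counting error only. The 3 uncoupling protein-like carriers Slc25a14, Slc25a27 and Slc25a30 did not pass (edgeR; 0 at an unadjusted p under 0.05, 0 with DESeq2), with changes of -0.33 (SE 0.27), 0.29 (SE 0.26) and 0.05 (SE 0.33). Slc25a30 lay between 15.3 and 46.0 CPM within WT alone.

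The Fbp1-deleted livers were not alike. Over the 14 carriers that passed, replicate 8 lay nearest to the WT mean for 9, replicates 7 and 10 for 2 each, replicate 6 for 1 and replicate 9 for 0. Replicate 9 lay farthest from the WT mean for 6. Without replicate 8 the count of rises was 12, as with all libraries. Over the fits without each library it lay between 9 and 12.

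**Figure D3:**
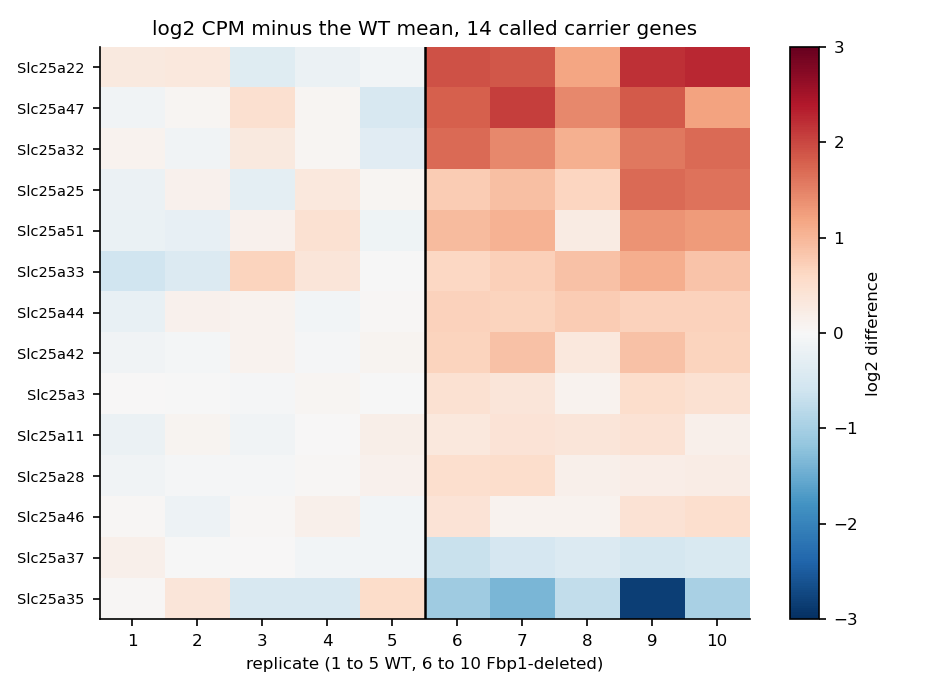
Level of each of the 14 carriers that passed (rows) in each library (columns), as log2 CPM minus the WT mean of that gene. The column of replicate 8 is paler than those of replicates 6, 7 and 9 for Slc25a22, Slc25a32, Slc25a51 and Slc25a42 but not for Slc25a44 or Slc25a33, and the extreme value is -2.83 for Slc25a35 in replicate 9.

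Levels of different genes were compared as CPM per kilobase of merged exons. Slc25a47 ranked first in both groups, at 269.7 ± 64.8 CPM per kb in WT and 856 ± 195 CPM per kb in Fbp1-deleted liver (SD, n = 5). In WT it was followed by Slc25a5 at 183 ± 6.34, Slc25a39 at 168 ± 6.57, Slc25a10 at 76.7 ± 10.3 and Slc25a3 at 47.3 ± 1.402 CPM per kb (SD, n = 5). The WT ranges of Slc25a47 and Slc25a5 overlapped, while the highest Slc25a39 library, at 174.9 CPM per kb, lay just under the lowest Slc25a5 library, at 175.0 CPM per kb. In Fbp1-deleted liver Slc25a22 ranked 3 at 152 ± 39.4 CPM per kb (SD, n = 5), from 6 in WT, and its range overlapped those of Slc25a5 and Slc25a39. Per kilobase of the longest protein-coding transcript Slc25a47 was still first, while Slc25a39 exceeded Slc25a5 in WT (275 against 243 CPM per kb) and Slc25a22 ranked 2 in Fbp1-deleted liver, ahead of Slc25a5 (324 against 283 CPM per kb).

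**Figure D4:**
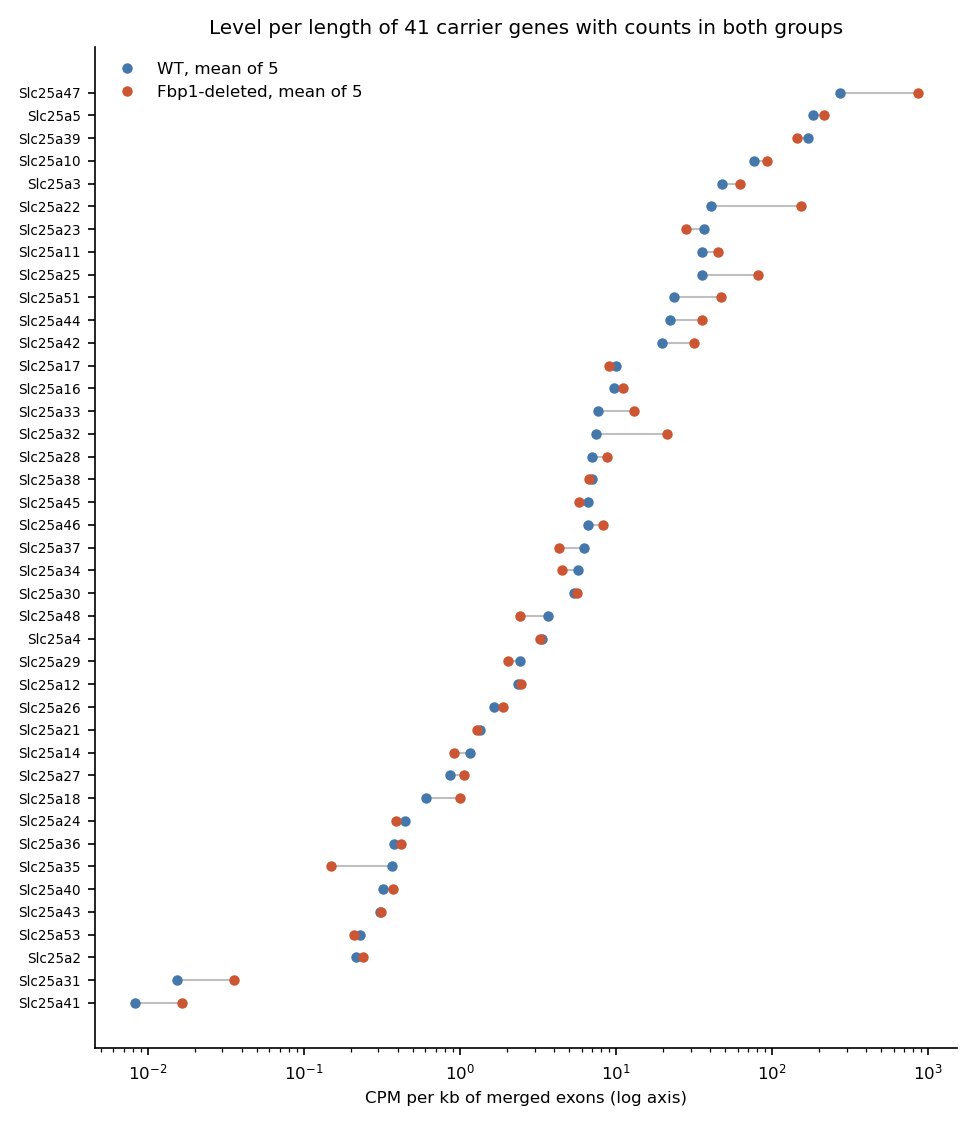
Mean level per length (x axis, CPM per kb of merged exons, log axis) of 41 carriers with counts in both groups, in WT and Fbp1-deleted liver (n = 5 each), ordered by the WT level. Slc25a47 is highest in both groups, and Slc25a31 and Slc25a41 at the bottom rest on 11 and 3 counts in all.

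Summed over the 43 carriers, transcript levels were 3621 ± 158 CPM in WT (SD, n = 5) and 6826 ± 822 CPM in Fbp1-deleted liver (SD, n = 5), and the groups did not overlap. Slc25a47 alone made up between 16.1% and 28.9% of that sum in WT and between 28.2% and 43.6% in Fbp1-deleted liver. Without it the sums were 2816 ± 113 CPM in WT (SD, n = 5) and 4269 ± 515 CPM in Fbp1-deleted liver (SD, n = 5), still without overlap. Much of that gain lay in Slc25a22 (means of 244 and 909.9 CPM) and Slc25a25 (279 and 633 CPM), while others such as Slc25a39 (464 and 394 CPM) were lower. Per length these 42 carriers summed to 792 ± 29.2 CPM per kb in WT and 1051 ± 84.4 in Fbp1-deleted liver (SD, n = 5 each). By length, amino acid carriers summed to 75.2 ± 8.59 CPM per kb in WT (SD, n = 5) and 199.9 ± 38.1 CPM per kb in Fbp1-deleted liver (SD, n = 5). Slc25a22 supplied most of both sums, and without it the other 6 summed to 34.6 ± 2.11 CPM per kb in WT (SD, n = 5) and 48.0 ± 1.35 CPM per kb in Fbp1-deleted liver (SD, n = 5). That gain lay in Slc25a44, with means of 22.0 CPM per kb in WT and 35.7 CPM per kb in Fbp1-deleted liver. The next highest of them, Slc25a38, had means of 6.97 and 6.66 CPM per kb. Carriers of adenine nucleotides and phosphate summed to 306 ± 13.8 CPM per kb in WT (SD, n = 5) and 387 ± 40.1 CPM per kb in Fbp1-deleted liver (SD, n = 5). The 2 mitoferrins together were at 13.2 ± 0.232 CPM per kb in WT (SD, n = 5) and 13.1 ± 0.90 CPM per kb in Fbp1-deleted liver (SD, n = 5), and the ranges overlapped.

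The balance between related carriers was compared as the log2 ratio of 2 counts within a library, which does not depend on library scaling. Of 12 pairs 6 differed between the groups (exact two-sided permutation test, adjusted over the 12 pairs; the smallest p that 5 against 5 libraries allow is 0.00794). Slc25a25 gained on Slc25a23, a relative that also carries ATP-magnesium and phosphate. Their ratio was 0.53 ± 0.30 in WT (SD, n = 5) and 2.05 ± 0.68 in Fbp1-deleted liver (SD, n = 5), a difference of 1.52 (exact permutation p = 0.00794, adjusted p = 0.019). Against Slc25a24, another such relative, the difference was 1.29 (exact permutation p = 0.00794, adjusted p = 0.019). Slc25a22 gained on Slc25a18, with a difference of -1.17 (exact permutation p = 0.00794, adjusted p = 0.019) in the ratio of Slc25a18 to Slc25a22. Slc25a28 gained on Slc25a37. The ratio of these mitoferrins was -0.50 ± 0.18 in WT (SD, n = 5) and 0.33 ± 0.25 in Fbp1-deleted liver (SD, n = 5), and each Fbp1-deleted library lay above each WT library, a difference of 0.83 (exact permutation p = 0.00794, adjusted p = 0.019).

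Slc25a42 gained on Slc25a16, with a difference of -0.51 (exact permutation p = 0.00794, adjusted p = 0.019) in the ratio of Slc25a16 to Slc25a42. That call was lost without WT replicate 2, 4 or 5 (adjusted p = 0.0571 each). Slc25a33 gained on Slc25a36 by 0.69 (exact permutation p = 0.0238, adjusted p = 0.0476). This call was lost on ranks (adjusted p = 0.0635) and without each library other than WT replicate 3 (adjusted p between 0.0635 and 0.127). The ratio of Slc25a4 to Slc25a5 differed by -0.35 (exact permutation p = 0.31, adjusted p = 0.413) and did not pass. Without Fbp1-deleted replicate 8 it passed, with a difference of -0.63 (adjusted p = 0.0159, exact permutation test). So did the ratio of Slc25a34 to Slc25a35, with 1.22 (adjusted p = 0.0408), against 0.95 (exact permutation p = 0.0794, adjusted p = 0.136) with all libraries. Slc25a35 was scarce and met the filter on low counts through its WT libraries. With a pseudocount of 5 counts and all libraries the difference of this pair was 0.60 (adjusted p = 0.179, exact permutation test). The ratios Slc25a23/Slc25a24, Slc25a39/Slc25a40, Slc25a10/Slc25a11 and Slc25a14/Slc25a30 differed by between -0.48 and -0.058 and did not pass.

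**Figure D5:**
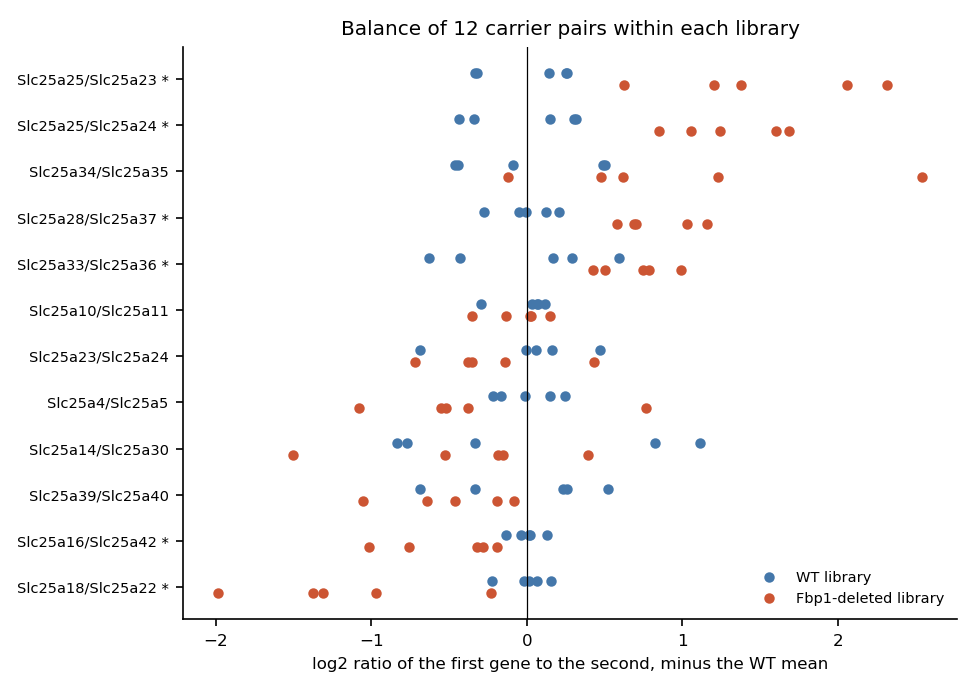
Log2 ratio of the first to the second carrier of each pair in each library, minus the WT mean of that pair (x axis); an asterisk marks the 6 pairs with an adjusted p under 0.05. For Slc25a25/Slc25a23 the Fbp1-deleted libraries lie apart from the WT libraries, whose mean ratio is 0.53.

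Other proteins of mitochondrial transport were read from the same fit, in which 10.6% of all genes tested passed as higher and 10% as lower. Of 6 enzymes of the malate-aspartate and glycerol phosphate shuttles, which carry cytosolic reducing equivalents to mitochondria, 4 rose and none fell (edgeR; 0 lower at an unadjusted p under 0.05, 0 with DESeq2), with a median of 0.86. Gpd2, the mitochondrial glycerol phosphate dehydrogenase, rose from 23.5 ± 6.31 to 75.8 ± 4.702 CPM (SD, n = 5 each), a change of 1.69 (SE 0.15, adjusted p = 1.33e-05). Gpd1, its cytosolic partner, changed by 1.42 (SE 0.24, adjusted p = 0.00226) and Got1, the cytosolic aspartate aminotransferase, by 1.60 (SE 0.27, adjusted p = 0.00226). Mdh2, the mitochondrial malate dehydrogenase, changed by 0.30 (SE 0.094, adjusted p = 0.0351). Their mitochondrial and cytosolic counterparts Got2 and Mdh1 did not pass, at -0.17 (SE 0.10, adjusted p = 0.266) and 0.13 (SE 0.10, adjusted p = 0.374). Of 7 other carrier family genes tested, the ornithine carrier Slc25a15 rose, by 1.20 (SE 0.18, adjusted p = 6.08e-04), and the outer membrane protein Mtch1 fell, by 0.46 on the log2 scale. Ucp2, an uncoupling protein, did not pass at 0.17 (SE 0.13, adjusted p = 0.366), and Ucp1, the uncoupling protein of brown fat, had a count of 0 in all libraries.

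Among 16 other transporters of the mitochondrial membranes 3 rose and none fell (edgeR; 0 lower at an unadjusted p under 0.05, 0 with DESeq2; median 0.041). They included Letm1, an ion exchanger, at 0.34 (SE 0.11, adjusted p = 0.0381), and Vdac3, an outer membrane channel, at 0.30 (SE 0.086, adjusted p = 0.0268). The pyruvate carrier genes Mpc1 and Mpc2 did not pass, at -0.15 (SE 0.12, adjusted p = 0.394) and 0.17 (SE 0.11, adjusted p = 0.292). On the route that imports carrier proteins, 2 of 13 genes rose and 1 fell (median 0.083). Tomm20, a receptor of the outer membrane, changed by 0.72 (SE 0.10, adjusted p = 3.32e-04), and the small chaperones Timm10 and Timm10b by 0.55 (SE 0.14, adjusted p = 0.0133) and -0.35 (SE 0.11, adjusted p = 0.0426). Timm22, the pore that inserts carriers into the inner membrane, did not pass at 0.083 (SE 0.12, adjusted p = 0.673). Over these lists 10 of 42 genes tested rose and 2 fell, against 12 and 2 of the 38 carriers. Of all genes tested 10.6% passed as higher and 10% as lower, and whether any list differs from that share was not tested.

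Promoter windows of the same length, from 250 bases before to 50 after a transcription start, were found in the RefSeq table of GRCm38.p6 for 32 of the 43 carriers (41 windows, since some have several starts). They were searched on both strands for the letters of 4 elements. The 11 carriers without a window were not searched. Among these are Slc25a32, Slc25a35, Slc25a37, Slc25a44, Slc25a46 and Slc25a51, which passed the test. TGACGTCA, the cAMP response element bound by CREB, was found for 2 carriers, Slc25a25 and Slc25a36, and for 2.03% of all 27025 genes in the table. CACGTG, an E-box, was found for 4, Slc25a14, Slc25a31, Slc25a33 and Slc25a36, and for 8.09% of all genes. TCAAGGTCA, read by oestrogen-related receptors, and the palindromic element of NRF1 were found for 0 of the 32, and for 0.466% and 1.07% of all genes. Per window, the cAMP response element stood in 2 of 41 carrier windows against 1.79% of all 32851, and the E-box in 5 of 41 against 7.15%. The Slc25a14 windows that hold the E-box overlap, and the same site is counted in each. No match overlapped a match of another element. The 250 bases upstream are shown for the 2 carriers that passed and hold an element, for Slc25a36, which holds both and did not pass, and for the neighbours Slc25a47 and Slc25a29, of which the first rose and the second did not pass. Each reads in the direction of the gene, and capitals mark the element.
Slc25a25, chr2:32424067-32424316, minus strand: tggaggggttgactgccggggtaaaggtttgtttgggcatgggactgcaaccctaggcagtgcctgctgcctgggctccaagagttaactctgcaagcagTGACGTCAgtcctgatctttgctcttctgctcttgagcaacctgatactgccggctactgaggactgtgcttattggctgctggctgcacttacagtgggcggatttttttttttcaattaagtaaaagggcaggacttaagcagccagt
Slc25a33, chr4:149774268-149774517, minus strand: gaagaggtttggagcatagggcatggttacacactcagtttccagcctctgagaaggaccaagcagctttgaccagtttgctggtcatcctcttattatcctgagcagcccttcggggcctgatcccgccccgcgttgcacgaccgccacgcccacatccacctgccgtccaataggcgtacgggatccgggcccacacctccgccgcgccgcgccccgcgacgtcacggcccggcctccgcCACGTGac
Slc25a36, chr9:97111042-97111291, minus strand: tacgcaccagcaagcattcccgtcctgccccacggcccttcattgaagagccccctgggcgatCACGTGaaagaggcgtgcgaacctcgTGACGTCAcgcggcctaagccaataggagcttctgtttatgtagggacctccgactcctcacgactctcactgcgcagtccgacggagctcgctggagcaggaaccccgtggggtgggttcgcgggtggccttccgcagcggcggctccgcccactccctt
Slc25a47, chr12:108850879-108851128, plus strand: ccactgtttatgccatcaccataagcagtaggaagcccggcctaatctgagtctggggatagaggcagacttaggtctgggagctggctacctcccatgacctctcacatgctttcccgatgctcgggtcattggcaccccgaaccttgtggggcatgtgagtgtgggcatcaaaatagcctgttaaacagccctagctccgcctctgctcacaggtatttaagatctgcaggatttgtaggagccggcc
Slc25a29, chr12:108835877-108836126, minus strand: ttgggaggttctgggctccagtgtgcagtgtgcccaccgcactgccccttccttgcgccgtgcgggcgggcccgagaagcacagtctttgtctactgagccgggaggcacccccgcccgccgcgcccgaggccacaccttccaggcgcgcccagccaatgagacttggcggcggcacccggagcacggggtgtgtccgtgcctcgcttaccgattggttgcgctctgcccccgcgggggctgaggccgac
In Slc25a25 the element begins 150 bases before 1 of the 3 starts in the table, and the gene counts do not tell the starts apart. In Slc25a33 the E-box begins 8 bases before the start. In Slc25a36 the E-box begins 187 and the cAMP response element 161 bases before it, and this gene had a change of 0.15. The starts of Slc25a29 and Slc25a47 lie 15253 bases apart in the table, since GENCODE extends the span of Slc25a47 upstream of the RefSeq start, and their windows are 71.2% and 54.4% G or C over the bases shown. A match is a run of letters and not evidence of binding.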

How the data were processed

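The data are 1 deposited table of estimated counts, with genes in rows and the 10 livers in columns. Software named in the submitters' processing notes comprises CASAVA and Salmon, and the build is GRCm38. The series' design text also describes STAR, featureCounts and DESeq2. How transcripts were summed to genes is not given in the sources used here. All values were whole numbers. Identifiers were matched to GENCODE M21, and 37 of 53392 had no match. Salmon shares reads between similar transcripts by a model, and the library does not mark strand, so counts of close paralogs, and of genes whose exons overlap, are uncertain. Of the 43 carriers, 23 overlap the span of another annotated gene. Libraries of a group differed by a chi-square of at least 16.2 per degree of freedom, so none was a duplicate.

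Counts were filtered with filterByExpr, scaled by TMM and fitted for all genes with a robust quasi-likelihood test (~ group) in edgeR 4.0.16, R 4.3.3, with Benjamini-Hochberg adjustment over 15392 genes. The SE is the change over the root of its F statistic. The biological coefficient of variation was 0.234. CPM uses TMM-scaled library sizes. Pair ratios used a pseudocount of 0.5 and exact permutation tests in Python 3.11.15. Alternatives used DESeq2 1.42.0, limma 3.58.1 and sva 3.50.0. The fit was also run on counts simulated from its own dispersions, which cannot show whether its model suits these data.

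Counts cover all carriers and listed genes, of which 1 carrier and 1 related gene are not reported here by name. Values in every library are given for those that passed, the 5 highest by level per length and members of pairs that passed. Slc25a4, Slc25a29 and Slc25a34, and from the related lists Got2, Mdh1, Ucp2, Mpc1, Mpc2 and Timm22, which did not pass, were added after their values were seen. The members and lists were chosen with earlier results of these data known.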

Additional observations from a re-analysis of the deposited data

Results flagged for a closer look

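Within the 2 groups of 5 libraries, 76 sets of 5 values of the 38 tested carriers were searched for a library far from the others, by a gap above 0.71 of the whole range. This marked 5 sets, 6.58%, where chance marks about 1 in 20. Slc25a23 stood at 195 CPM in Fbp1-deleted replicate 8, where the next library had 142 CPM. For Slc25a27, Fbp1-deleted replicate 10 held 5.35 CPM and the next 4.07 CPM. Slc25a30 reached 46.0 CPM in WT replicate 4, with 23.6 CPM in the next library. In WT replicate 5, Slc25a36 was low at 3.19 CPM against 3.68 CPM, and Slc25a45 was high at 25.7 CPM against 17.4 CPM. None of these 5 genes passed the test with all libraries.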

How the results depend on the processing

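No paired analysis was possible because the labels give no litter, batch or other match between WT and Fbp1-deleted livers. Of the 14 carriers that passed, 9 kept their call in all 19 alternative fits and 0 changed sign. Calls ended in some fit for Slc25a11, Slc25a28, Slc25a33, Slc25a35 and Slc25a46. The count of rises, 12, was 7 at an adjusted p under 0.01 and between 9 and 13 in the other fits. The count of falls, 2, was 4 with upper quartile factors and with library totals alone, 1 with the stricter filter, where fewer genes are tested, and 1 at an adjusted p under 0.01. Without each library in turn it lay between 1 and 4. Upper quartile factors and library totals shift the median change of all genes to -0.063 and -0.078. The share of all genes that passed was counted in the main fit alone, not in these alternatives. In the related lists the falls, 2, lay between 0 and 3 without each library, at 1 with any of WT 1, 2, 3, 5 and Fbp1-deleted 6 and 10 left out. The 0, without Fbp1-deleted replicate 9, stood beside 2 at an unadjusted p under 0.05 (edgeR). The pairs that passed numbered between 4 and 7 without each library, and 5 on ranks. Some carriers that did not pass changed sign. Slc25a12 was at -0.0069 with upper quartile factors and -0.022 with totals, and Slc25a30 at -0.011 and -0.031. Without each library in turn, Slc25a4 lay between -0.36 and 0.083, Slc25a21 between -0.22 and 0.079, Slc25a30 between -0.11 and 0.40, Slc25a53 between -0.25 and 0.041, and the ratio Slc25a10/Slc25a11 between -0.13 and 0.015. The cause of these moves was not tested.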
